A study of Sus scrofa with 10 samples.

Results

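Kidney and ovary both form in the embryo from the intermediate mesoderm and the lining of the body cavity beside it, and transcription factors such as WT1, PAX2, EMX2 and the posterior HOX genes are known to pattern that ridge. The adult organs do unlike work: the nephron filters blood and reabsorbs solutes, while the ovary houses oocytes in follicles of granulosa and theca cells. The genes described here were those that stood high in both organs and low elsewhere. A gene qualified when its level was at least 2 FPKM (fragments normalised to gene length and library depth) in kidney and in ovary, and when the lower of these levels plus 1 was at least 3 times the highest level plus 1 among the 7 other tissues. Of 25880 genes in the table, 33 qualified, which is 0.128% of the table and 0.344% of the 9606 genes at 2 FPKM or more in both organs. The rule used the measured levels, so the height of these genes in kidney and ovary is a description of how they were chosen and no finding.

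The animals were Northeast min pigs at 60 days of age, a domestic breed, and RNA-seq was done once per tissue. The tissues were kidney and ovary, set against heart, liver, spleen, lung, psoas major, longissimus dorsi and subcutaneous adipose tissue, and a further library, the pool, was labelled as mixed tissue that included kidney, ovary, lung, spleen, liver, heart and muscle. The labels state neither the number of animals, nor their sex, nor whether the tissues came from the same animal. With 1 library per tissue, no difference has a replicate check, so no p-value, error or interval is given. Each tissue was read as a bulk sample, in which fewer cells of a type and less RNA per cell cannot be told apart. Depth is not stated. Among short genes, the commonest product of level and gene span was taken as 1 fragment. In kidney 40 of the 433 short genes used had that product, and in ovary 82 of 708. It gave 11.5 M fragments in kidney, 11.8 M in ovary and between 11.9 and 31.5 M in the 7 other tissues. These depths are uncertain by a factor of 2. Summed levels ran from 292495 FPKM in kidney to 369254 FPKM in longissimus dorsi.

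As sums, the markers of each organ were highest in its own library. Summed over 12 markers of the nephron tubule, the level was 5143 FPKM in kidney, 9.80 FPKM in ovary and at most 1.90 FPKM in any other tissue. Summed over 12 matched oocyte and granulosa markers, it was 538 FPKM in ovary, 10.4 FPKM in kidney (10.3 FPKM of it from GDF9, which was also detected in all other tissues) and at most 25.6 FPKM elsewhere. Of these 12 markers 2 were under 1 FPKM in ovary, FOXL2 at 0 in all 10 libraries and BMP15 at 0.269 FPKM in ovary. WT1 and HOXA10, known markers of urogenital origin, did not have the pattern of the rule. WT1, a zinc finger factor of the genital ridge and the podocyte, stood at 10.5 FPKM in kidney and 36.0 FPKM in ovary, but also at 8.78 FPKM in spleen and 2.14 FPKM in heart, with at most 0.0784 FPKM in the other tissues. HOXA10, a posterior HOX gene, stood at 26.5 FPKM in kidney, yet at 0.785 FPKM in ovary, against 8.16 FPKM in psoas major, 0.351 FPKM in longissimus dorsi and 0 in the 5 remaining tissues. Neither gene qualified, and the set is therefore called by its rule, the 33 kidney and ovary genes.

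For the lower of kidney and ovary, the median level was 6.12 FPKM over the 33 genes. It was 7.98 FPKM over all genes at 2 FPKM or more in both organs. By organ, the median of the 33 genes was 8.74 FPKM in kidney and 8.36 FPKM in ovary. The median for the highest of the 7 other tissues was 0.494 FPKM. Of the 33, 14 were under 10 FPKM in both organs, 3 were over 100 FPKM in kidney and 1 was over 100 FPKM in ovary. Together they made up 0.396% of the summed kidney level and 0.157% of the summed ovary level. The fold over the highest other tissue, on the FPKM + 1 scale used throughout, ran from 3.05 to 32.6 with a median of 4.17. In 21 of the 33 genes all 7 other tissues were under 1 FPKM, and in 3 of them (HOXD11, GALNT14 and the model ENSSSCG00000024459) all 7 were listed at 0. The nearest other tissue was lung for 11 genes, spleen for 8, adipose tissue for 5, liver for 4 and each of the skeletal muscles for 1. The matching counts over all genes were not computed, so nothing is read from these or the other counts of this paragraph. 30 of the 33 genes had a symbol.

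**Figure D1:**
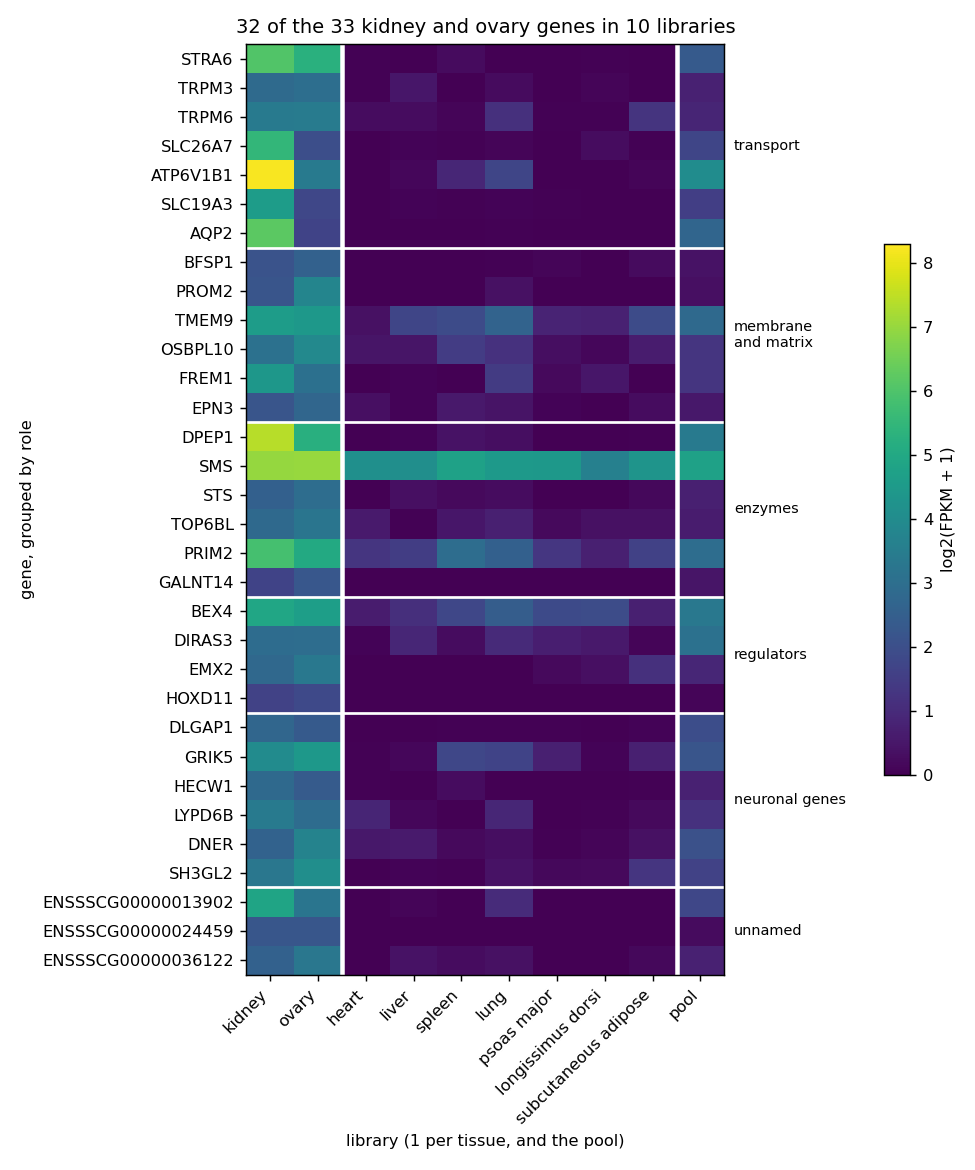
Levels of 32 of the 33 kidney and ovary genes, as log2(FPKM + 1), in each of the 9 single tissues (1 library each) and the pool, with genes grouped by role and white lines between groups. Kidney and ovary are bright by choice of the genes; SMS alone stays above 11 FPKM in every tissue, and the pool is mostly darker than kidney and ovary.

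The 7 transport genes ranged from 6.34 to 294 FPKM in kidney and from 2.21 to 37.8 FPKM in ovary. STRA6, the cell surface receptor that takes up retinol from its plasma carrier, stood furthest above the other tissues. It reached 64.9 FPKM in kidney and 37.8 FPKM in ovary, against 0.192 FPKM in spleen, 0.0340 in heart, 0.0264 in longissimus dorsi, 0.0109 in lung and 0 in liver, psoas major and adipose tissue. That is 32.6-fold over the highest other tissue. STRA6 lies on chromosome 7 of Sscrofa11.1, from 59317963 to 59347264. Of the 18 retinoid genes listed, 13 reached 2 FPKM in both organs and 1, STRA6, qualified. The share among the 9606 genes at that level was 0.344%. RARB, a retinoic acid receptor gene, and RDH10, an enzyme of retinal synthesis, were also above all 7 other tissues, at 5.07 and 10.6 FPKM in kidney and 15.2 and 10.9 FPKM in ovary, but with folds of 1.11 and 1.33. The median log2 fold of the retinoid list was -1.503, against -0.95 over all 15637 genes detected at 1 FPKM or more in any of the 9 tissues. The list was chosen with earlier results of these data known, and the rule used the same levels. Nothing is therefore read from its share or its median.

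A pair of melastatin cation channels had near-equal levels in both organs. TRPM6, the magnesium channel of the distal convoluted tubule, stood at 9.65 FPKM in kidney and 10.03 FPKM in ovary, with at most 1.39 FPKM (adipose tissue) elsewhere. TRPM3, a calcium-permeable channel that opens to the steroid pregnenolone sulphate, stood at 6.34 FPKM in kidney and 6.99 FPKM in ovary, with at most 0.407 FPKM (liver) elsewhere. Both genes lie on chromosome 1, 3.69 Mb apart.

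The other 4 transport genes were strongly uneven. ATP6V1B1, a subunit of the proton pump of acid-secreting intercalated cells, stood at 294 FPKM in kidney and 9.72 FPKM in ovary, against at most 2.33 FPKM (lung) elsewhere. SLC26A7, an anion exchanger of the same cells, stood at 43.7 FPKM in kidney and 3.01 FPKM in ovary, against at most 0.203 FPKM elsewhere. AQP2, the vasopressin-regulated water channel of the collecting duct, stood at 72.4 FPKM in kidney and 2.21 FPKM in ovary, against 0.0305 FPKM in lung and 0 in the other 6 tissues. SLC19A3, a thiamine transporter, stood at 23.3 FPKM in kidney and 2.37 FPKM in ovary, against at most 0.0583 FPKM elsewhere. In SLC26A7, AQP2 and SLC19A3 the ovarian level was itself low, and the 7 other tissues were all at or below 0.203 FPKM. ATP6V1B1 differed, with an ovarian level above the median of the 33 genes and detection in lung.

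Because such genes are known from the nephron, the ovarian level of other tubule markers is given beside theirs. The rule required at least 2 FPKM in ovary of the 33 genes and not of the markers, so the gap between the lists follows from that choice and nothing is read from it. UMOD, the uromodulin gene of the thick ascending limb, stood at 2481 FPKM in kidney and 0.277 FPKM in ovary, or 0.0112% of its kidney level. Over the 12 tubule markers the ovary held a median of 0.0451% of the kidney level, with SLC5A2 (87.4 FPKM in kidney, 3.45 FPKM in ovary) highest at 3.94%. In the 7 kidney and ovary genes that were at least 3-fold higher in kidney the ovary held between 3.05% (AQP2, which is also a tubule marker) and 30.5% of the kidney level, with a median of 6.90%. The tubule markers SLC12A3 and KCNJ1, at 225 and 11.7 FPKM in kidney, were at 0 in ovary.

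The podocyte list was read for the glomerulus of the kidney. Of 11 matched genes 8 reached 2 FPKM in both organs, and 2 were above all 7 other tissues, where 11.3% of the 9606 genes were. The median log2 fold of the list was -0.70. This list too was chosen with earlier results of these data known, so nothing is read from its share or median. SYNPO stood at 5.12 FPKM in kidney against 84.3 FPKM in longissimus dorsi, and CLIC5 at 5.85 FPKM in kidney against 44.0 FPKM in lung. PODXL, the podocyte sialomucin gene, was above all 7 other tissues at 17.9 FPKM in kidney and 15.9 FPKM in ovary, with a fold of 1.84 over heart. NPHS1, the nephrin gene, stood at 5.95 FPKM in kidney, 0.286 FPKM in ovary and 0.414 FPKM in spleen.

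Of the 7 genes of membranes, matrix and cytoskeleton, 3 were higher in kidney and 4 in ovary. PROM2, a prominin of plasma membrane protrusions, leaned most towards ovary, with 3.55 FPKM in kidney and 12.8 FPKM in ovary, against at most 0.295 FPKM (lung). Its model overlaps that of KCNIP3, and reads of both could be mixed. FREM1, a basement membrane protein gene of the Fraser complex, stood at 19.9 FPKM in kidney and 7.36 FPKM in ovary, against 1.73 FPKM in lung. TMEM9, a lysosomal membrane protein gene, was even between the organs, at 23.0 FPKM in kidney and 20.5 FPKM in ovary, but was detected at 5.199 FPKM in lung. Also in this group were EPN3, an endocytic adaptor of the epsin family, BFSP1, known as a lens filament gene, and OSBPL10, of the oxysterol-binding family. They ranged from 3.32 to 7.57 FPKM in kidney and from 4.98 to 13.9 FPKM in ovary, and all 3 were higher in ovary.

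The 6 enzyme genes included the most abundant balanced gene of the set. SMS, spermine synthase, stood at 125 FPKM in kidney and 127 FPKM in ovary. It was also well detected in every other tissue, from 11.3 FPKM in longissimus dorsi to 25.8 FPKM in spleen with a median of 18.8 FPKM over the 7 other tissues. DPEP1, the renal brush border dipeptidase, stood at 169 FPKM in kidney and 36.9 FPKM in ovary, against 0.320 FPKM in spleen, 0.242 in lung, 0.0536 in liver, 0.0387 in adipose tissue and 0 in heart and both muscles, a fold of 28.7. Only STRA6 and DPEP1 exceeded a fold of 6, since the third in order, TRPM3, stood at 5.22.

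PRIM2, the large subunit of DNA primase, stood at 56.7 FPKM in kidney and 31.8 FPKM in ovary, against at most 6.87 FPKM (spleen). STS, steroid sulphatase, stood at 4.83 FPKM in kidney and 6.84 FPKM in ovary, with at most 0.263 FPKM (liver) elsewhere. GALNT14, which starts mucin-type glycosylation, stood at 2.22 FPKM in kidney and 3.77 FPKM in ovary and was at 0 in the rest. TOP6BL, known in mouse for making meiotic DNA breaks, stood at 6.12 FPKM in kidney and 8.36 FPKM in ovary, against at most 0.674 FPKM (lung). No gene of the steroid receptor and enzyme list qualified, although HSD11B2, which inactivates cortisol, was near with 44.96 FPKM in kidney, 4.47 FPKM in ovary and 0.888 FPKM in lung, a fold of 2.90.

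Of the lists, 2 transcription factor genes qualified. EMX2, a homeobox factor needed in mouse for kidney and genital tract, stood at 6.04 FPKM in kidney and 9.05 FPKM in ovary, against 1.22 FPKM in adipose tissue, 0.269 in longissimus dorsi, 0.153 in psoas major and 0 in heart, liver, spleen and lung. HOXD11, a posterior HOX gene that acts in mouse kidney formation together with HOXA11, stood at 2.104 FPKM in kidney and 2.56 FPKM in ovary, and at 0 in the 7 other tissues. The whole HOXD11 model spans 1.78 kb, so by the depth estimate above these levels rest on about 43.2 fragments in kidney and 53.9 in ovary, taking the whole model as transcript and with the same factor of 2 in doubt. Neither gene held the 3-fold threshold when libraries were rescaled by median-of-ratios factors, with folds on the log2 scale of 1.495 for EMX2 and 1.37 for HOXD11 against a threshold of 1.58.

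Of 30 matched urogenital transcription factors, 27 were detected and 14 reached 2 FPKM in both organs. In 8 of those 14 both organs were above all 7 other tissues, where 11.3% of all genes at 2 FPKM in both were so. Among these were EMX2, OSR2, DACH1, WT1, NR2F1, SALL1 and NR2F2, whose folds, EMX2 aside, stayed between 1.06 and 1.73. The median log2 fold of the 27 was -0.57, against -0.95 for all detected genes. The list was chosen with earlier results of these data known, and the rule used the same levels. Nothing is therefore read from the share or the median. OSR2, an odd-skipped factor, was the second in order at 4.11 FPKM in kidney and 9.09 FPKM in ovary, against 1.95 FPKM in longissimus dorsi. Several factors were high in 1 organ and nearly absent in the other. PAX2 stood at 29.2 FPKM in kidney and 0.103 FPKM in ovary, and LHX1 at 7.20 FPKM in kidney and 0.457 FPKM in ovary. GATA4, NR5A1 and LHX9, factors of the gonad, stood at 21.2, 16.7 and 8.05 FPKM in ovary and at 0 in kidney, though GATA4 also stood at 22.004 FPKM in heart and NR5A1 at 5.77 FPKM in spleen.

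Of 37 matched HOX genes, 10 reached 2 FPKM in both organs. Of these 10, 3 were above all 7 other tissues in both and 1, HOXD11, qualified, where 11.3% and 0.344% of the 9606 genes did. Nothing is read from these shares, since the lists were chosen with earlier results of these data known. HOXD9 came next at 17.4 FPKM in kidney and 13.4 FPKM in ovary, against 4.80 FPKM in longissimus dorsi, 1.91 in adipose tissue and 1.82 in psoas major, a fold of 2.48. HOXB4 followed at 7.52 FPKM in kidney and 5.38 FPKM in ovary, against 3.13 FPKM in lung. HOXA9 shared the pattern of HOXA10, with 15.9 FPKM in kidney and 0.778 FPKM in ovary, against 8.28 FPKM in psoas major. Summed over the 15 matched HOX genes of groups 9 to 13, the level was 75.9 FPKM in kidney, 27.7 FPKM in ovary and between 0 and 27.1 FPKM in the 7 other tissues. The highest of the 7 was psoas major, close to ovary.

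**Figure D2:**
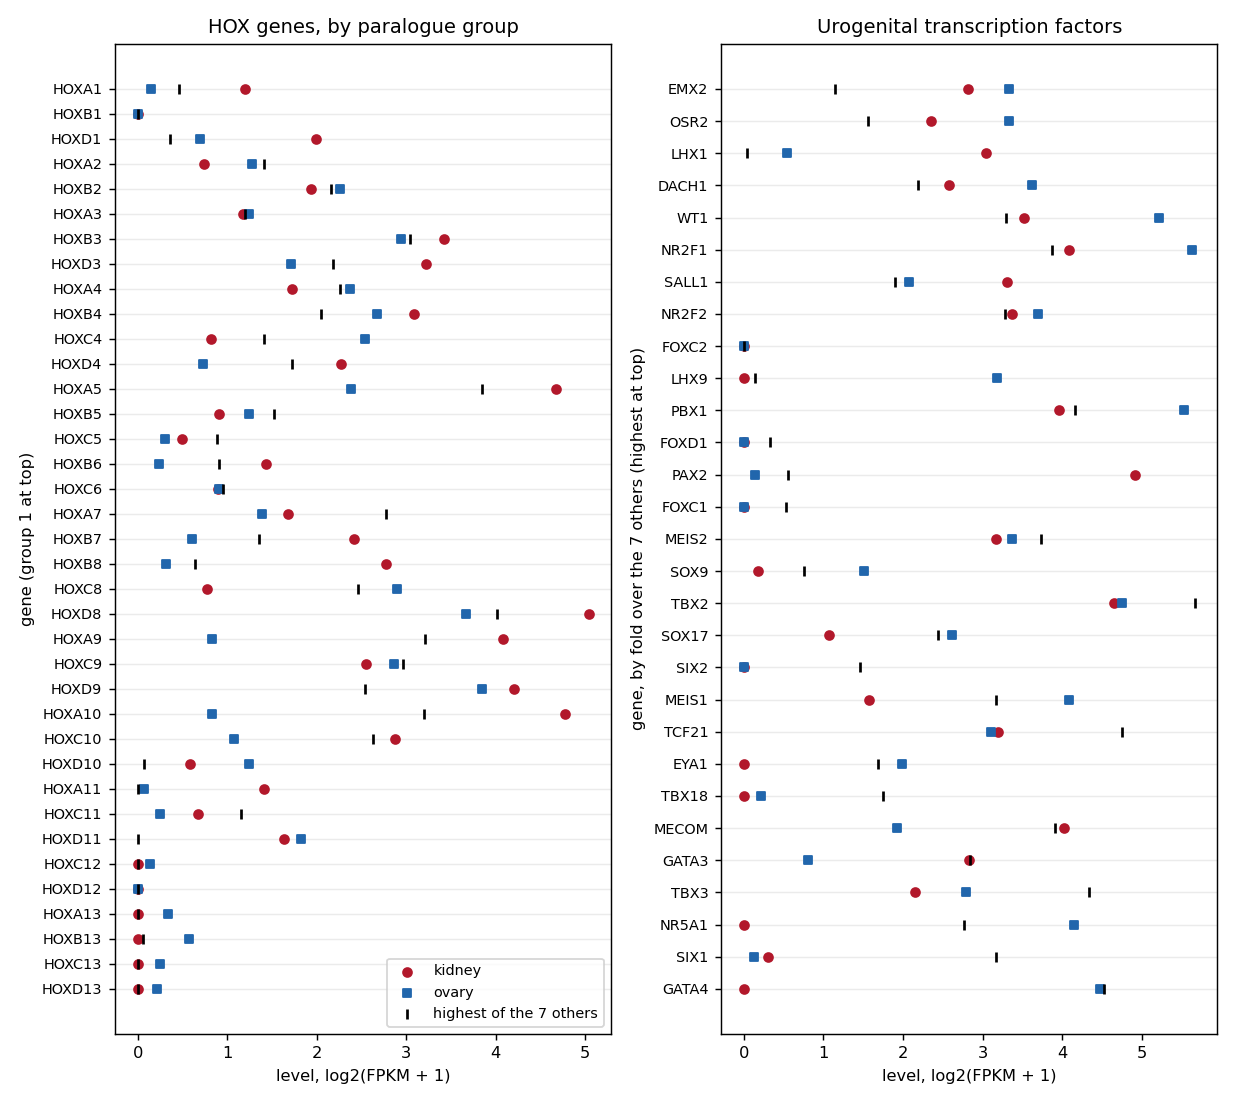
Levels, as log2(FPKM + 1), of 37 HOX genes ordered by paralogue group (left) and of 29 urogenital transcription factors ordered by fold over the other tissues (right); red circles are kidney, blue squares ovary and black ticks the highest of the 7 other tissues, 1 library each. HOXD11 and EMX2 have both coloured marks 3-fold clear of the tick, whereas PAX2 is high in kidney alone, HOXA10 in kidney and another tissue, and GATA4 and NR5A1 in ovary and another tissue.

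The other regulators were DIRAS3 and BEX4. DIRAS3, an imprinted Ras-like growth inhibitor in human, was even at 6.70 FPKM in kidney and 6.74 FPKM in ovary, against at most 0.991 FPKM (lung). BEX4, of the brain-expressed X-linked family, stood at 29.0 FPKM in kidney and 24.2 FPKM in ovary, against at most 4.45 FPKM (lung). Its relative BEX3 was the gene just outside the threshold, at 48.2 FPKM in kidney and 88.8 FPKM in ovary, against 15.4 FPKM in adipose tissue, a fold of 2.99. The other 4 genes just outside were CSDC2, CLEC18C, VPS37D and SCRN1, with folds of 2.92 to 2.94. The 5 genes just inside were EPN3, FREM1, OSBPL10, HOXD11 and AQP2, with folds of 3.05 to 3.11, so the boundary cuts through a continuous range.

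A group of 6 genes was set apart as best known from neurons, a role given after the members were seen. The share of such genes in the whole table was not computed, so nothing is read from their number. GRIK5, a kainate receptor subunit, stood at 15.1 FPKM in kidney and 20.3 FPKM in ovary, against 2.42 FPKM in spleen and 2.18 FPKM in lung. Its model overlaps another gene model, so part of its value may belong to that one. SH3GL2, an endophilin of synaptic vesicle recycling, stood at 8.74 FPKM in kidney and 16.3 FPKM in ovary, against 1.45 FPKM in adipose tissue. DNER, a Notch-related receptor of neurons, stood at 5.08 FPKM in kidney and 12.3 FPKM in ovary, against at most 0.526 FPKM (liver).

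The others of this group leaned towards kidney. DLGAP1, a scaffold of the postsynaptic density, stood at 5.61 FPKM in kidney and 4.09 FPKM in ovary, and at no more than 0.0566 FPKM elsewhere. HECW1, a ubiquitin ligase, stood at 6.15 FPKM in kidney and 4.20 FPKM in ovary, against at most 0.215 FPKM (spleen). LYPD6B, of the Ly6 family that binds nicotinic receptors, stood at 9.36 FPKM in kidney and 6.69 FPKM in ovary, against at most 0.840 FPKM (lung). Of these 6 genes 5 span over 100 kb.

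Gene span was not used by the rule. Of the 33 genes 13 (39.4%) span more than 100 kb, from FREM1 to HECW1 (419 kb), where 17.6% of the 9606 genes at 2 FPKM in both organs do. The median span was 51.8 kb for the 33 genes and 30.1 kb for the 9606.

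The balance between kidney and ovary was mixed. Of the 33 genes 16 were higher in kidney and 17 in ovary, where 37.6% of the 9606 genes were higher in kidney. In 23 of 33 genes the organs were within 2-fold of each other, where 72.4% of the 9606 genes were. A 3-fold excess in kidney was held by 7 genes (5.43% of the 9606), and a 3-fold excess in ovary by PROM2 alone (6.5% of the 9606). The rule takes the lower of both levels, so nothing is read from these shares.

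**Figure D3:**
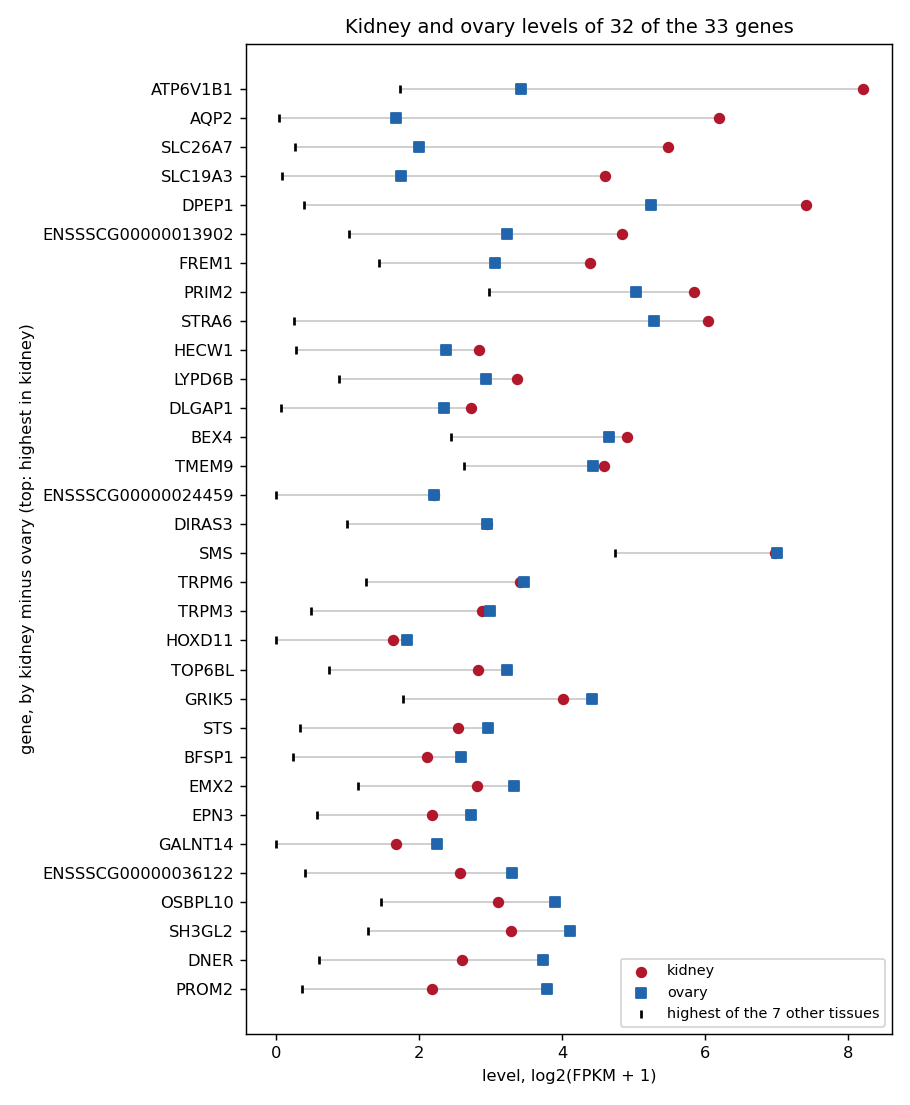
Levels, as log2(FPKM + 1), of 32 of the 33 genes in kidney (red circles), ovary (blue squares) and the highest of the 7 other tissues (black ticks), 1 library each, sorted by the difference between kidney and ovary. ATP6V1B1 and AQP2 at the top are over 20-fold higher in kidney, the middle of the plot is near-equal, and PROM2 and DNER at the bottom are the only genes over 2-fold higher in ovary.

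Lists of cell types that either sample could hold were set beside the rule. Of the 9606 genes at 2 FPKM in both organs, 11.3% were above all 7 other tissues and 0.344% qualified. Of 22 matched general epithelium genes 18 reached 2 FPKM in both organs. MAL and CDH6 were above all 7 other tissues and none qualified. Nothing is read from these shares or those of the next lists. CDH1, E-cadherin, stood at 31.7 FPKM in kidney and 44.5 FPKM in ovary, against 70.7 FPKM in lung and 62.6 FPKM in liver. The mesothelium and surface epithelium list had 6 genes at 2 FPKM in both organs. Of these, KRT7 was above all 7 tissues, at 10.6 FPKM in kidney and 31.8 FPKM in ovary, against 7.58 FPKM in lung. Of the list of 31 signals in kidney and genital duct formation, 12 reached 2 FPKM in both organs. LGR5, WNT5A and KIT were above all 7, with folds of 1.06 to 1.78, and none of the list qualified.

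Markers of tissues that adjoin these organs were also read. Of the 6 matched adrenal cortex markers, the ACTH receptor gene MC2R was at 0 in both organs, and the list summed to 21.3 FPKM in kidney and 19.1 FPKM in ovary, against 7.57 to 22.5 FPKM elsewhere. Of these sums FDX1 gave 20.01 FPKM in kidney and 9.81 FPKM in ovary. STAR stood at 4.67 FPKM in ovary and 0.940 FPKM in kidney, with at most 2.49 FPKM (adipose tissue) elsewhere. CYP21A2 stood at 2.90 FPKM in ovary and 0.338 FPKM in kidney, against 9.74 FPKM in adipose tissue. CYP17A1 and CYP11A1 stood at 0.924 and 0.840 FPKM in ovary and at 0 in kidney. The 6 matched urothelium markers summed to 3.62 FPKM in kidney and 14.8 FPKM in ovary, against 0.0584 to 4.57 FPKM elsewhere, of which UPK1B gave 2.30 FPKM in kidney and 13.6 FPKM in ovary. The 7 oviduct and cilium markers summed to 7.21 FPKM in kidney and 21.3 FPKM in ovary, against up to 89.3 FPKM elsewhere. OVGP1, the oviduct glycoprotein gene, stood at 0.382 FPKM in kidney and 3.71 FPKM in ovary. The smooth muscle list summed to 122 FPKM in kidney and 567 FPKM in ovary, against up to 1682 FPKM elsewhere, and of the 18 limb and body position factors none qualified. The part of these cell types in the levels of the 33 genes was not tested.

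The pool was left out of the rule and is a separate library. The 33 genes stood there at a median of 1.92 FPKM, and 29 of them were below the lower of kidney and ovary. The 12 tubule markers were in the pool at a median of 6.45% of their kidney level, with a range of 2.92 to 30.3%. The 7 genes with a 3-fold excess in kidney had a like median of 5.99% and a range of 5.29 to 8.68%. AQP2 belongs to both groups. The oocyte and granulosa markers at 2 FPKM or more in ovary (10 genes) were in the pool at a median of 0.0270% of their ovary level, although the label names ovary among its parts. In the pool, 8 of the 33 genes were above 20% of their kidney level. The matching shares over all genes were not computed, so nothing is read from the counts of 29 and 8. DIRAS3 stood at 7.54 FPKM in the pool, above its level in each of the 9 tissues. DNER and DLGAP1 stood at 3.17 and 2.86 FPKM there, or 62.5% and 51.1% of their kidney level. The cause was not tested.

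**Figure D4:**
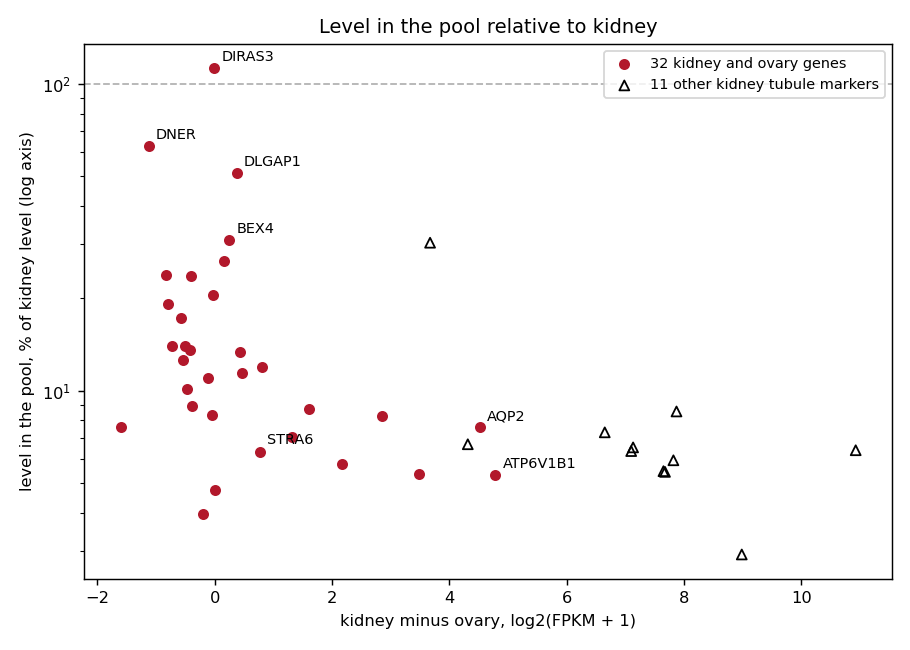
Level in the pool as a percentage of the kidney level (log axis) against the kidney minus ovary difference in log2(FPKM + 1), for 32 of the 33 genes (red) and 11 other tubule markers (open triangles); the dashed line marks an equal level. Genes well above 0 on the horizontal axis lie between 5.29 and 8.68% where the excess in kidney is 3-fold, close to most tubule markers, while near-equal genes spread from 3.96% (HOXD11) to 112% (DIRAS3).

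The number of genes was set beside that of other pairs with kidney under the same rule. Kidney and liver shared 155 such genes (0.599% of the table and 2.09% of those at 2 FPKM in both), and kidney and lung shared 21 (0.0811% and 0.221%). Kidney and ovary had 33 (0.128% and 0.344%). Kidney and liver held more genes than kidney and ovary under every alternative tried. Kidney and lung held more than kidney and ovary under pseudocount 5 (5 genes for kidney and ovary, 8 for kidney and lung), fold 5 (3 and 10), median-of-ratios scaling (18 and 19) and quantile normalisation (13 and 20).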

How the data were processed

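RNA-seq gene levels of 9 tissues and a pool were analysed. TopHat2 2.1.0, StringTie 1.2.2 and the Sscrofa11.1 assembly are listed, with no roles, in the submitters' processing notes. The annotation, strand setting and filters were not given in the sources used here. No unit stands in the header, and the deposited values, which are not whole, were taken as FPKM, though another length-scaled unit is possible. The deposited FPKM were compared as log2(FPKM + 1). No replicates exist, so no test was run. Symbols came from an Ensembl table (14857 genes) or a RefSeq gene of the same assembly overlapping by at least 0.5 of the longer one, best both ways (1714 genes). The rule, with pseudocount 1, least level 2 and fold 3, was applied to all 25880 genes of 9 tissues. The members and the 17 gene lists were chosen with earlier results of these data known, and the role groups were made after the members were seen. Of genes sharing a symbol the most abundant on average was kept. List genes were counted as detected at 1 FPKM or more in any of 9 tissues. Named are WT1, HOXA10, members in lists, members extreme in fold, level or balance, genes at the threshold, and list genes; the other members were named after their values were seen. The rule was tested on simulated data. Python 3.11.15, numpy 2.4.6, pandas 2.3.3 and matplotlib 3.10.9 were used. Sequences were not used here. Some genes counted here are not reported by name or plotted.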

Additional observations from a re-analysis of the deposited data

How the results depend on the processing

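The count of 33 genes depended on the processing. It was 61 at a pseudocount of 0.1 and 5 at a pseudocount of 5. It was 19 at a least level of 5 FPKM, 99 at fold 2 and 3 at fold 5. Median-of-ratios scaling, which divides kidney by 1.21 and ovary by 1.60 and moves the median log2 fold of the 9606 genes by -0.41, left 18 genes, 17 of them among the 33. Quantile normalisation, which moves that median by -0.31, left 13, all among the 33. No least level, or 1 FPKM, left the count at 33, because fold 3 at pseudocount 1 already requires 2 FPKM. Scaling to the mean sum gave 41, merged muscles 35, models without a named neighbour 30, and reading the level of 2 as log2, chosen after seeing the data, 29. STRA6, DPEP1 and PRIM2 held the fold under all 6 alternatives of pseudocount, scaling and muscle treatment. HOX genes numbered 0 under pseudocount 5, fold 5, a least level of 5 or read as log2, and both scalings just named, and 2 (with HOXD9) under fold 2 or merged muscles. Urogenital factors numbered 0 under pseudocount 5, fold 5 and both scalings. The share of genes higher in kidney, 48.5%, became 80% of 5 genes at pseudocount 5 and 66.7% of 3 at fold 5. Kidney and liver gave 100 and 97 genes and kidney and lung 8 and 10 under pseudocount 5 and fold 5, and kidney and lung 52 at fold 2. The median level in the pool became 8.97 FPKM (pseudocount 5), 3.17 (least level 5), 4.11 (fold 5), 1.07 (median-of-ratios) and 2.996 (quantile); these values for the pool were added after seeing the data. No paired analysis was possible because each tissue has 1 library. The estimated depth puts HOXD11 at about 43.2 fragments in kidney and 53.9 in ovary, in doubt by a factor of 2, and with 1 library per tissue no variation between animals can be given.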

Other observations

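The 33 genes lie on 18 chromosomes, with 4 each on chromosomes 1, 6 and 15 and 3 each on chromosomes 3 and X. The matching shares of all genes were not computed, so nothing is read from these counts. Apart from the TRP channel pair, SH3GL2 and FREM1 lie 2.33 Mb apart on chromosome 1, and SLC19A3 and DNER 1.32 Mb apart on chromosome 15. No pair of HOX genes qualified together.

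A model without a symbol on chromosome Y (ENSSSCG00000036122, 2743936 to 2825646) qualified at 4.93 FPKM in kidney and 8.85 FPKM in ovary, against at most 0.328 FPKM (liver). STS on chromosome X had a like profile, at 4.83 FPKM in kidney and 6.84 FPKM in ovary, against at most 0.263 FPKM (liver). The male-specific genes SRY, KDM5D and EIF1AY were at 0 in all 10 libraries, whereas CD99 and DHRSX, annotated on Y as well and known from the region that X and Y share, were detected in every library. Reads that match both chromosomes could not be told apart in this table. Of the other models without a symbol, ENSSSCG00000024459 lies inside the RefSeq gene OXGR1, whose product is a receptor for 2-oxoglutarate, and stood at 3.64 FPKM in kidney and 3.63 FPKM in ovary and 0 elsewhere. ENSSSCG00000013902 stood at 27.6 FPKM in kidney and 8.41 FPKM in ovary, against 1.03 FPKM in lung.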
